A study of Mus musculus with 12 samples.

Results

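The 10 genes Tbx21, Eomes, Prdm1, Zeb2, Id2, Id3, Runx3, Runx1, Irf4 and Batf encode transcription factors and transcriptional regulators of CD8 T cell differentiation. They were taken by name from 21900 protein-coding genes of the RefSeq annotation of GRCm38, and a gene was called marked where at least 1 base of an H3K79me2 peak lay between its annotated start and end. The data are chromatin immunoprecipitation sequencing (ChIP-seq) of H3K79me2, dimethylated lysine 79 of histone H3, in cultured CD8 T cells of male mice, strain CreERT2;DOT1L-flox;OT-I. The labels give the genotype as wt;wt;het, read in the order of the strain name, so every group was wild type for Cre and for Dot1l and heterozygous for OT-I, a T cell receptor transgene. They were activated with antibodies to CD3 and CD28 and sampled on day 8 after culture with EPZ-5676, with SGC-0946 or with the vehicle, 0.1% DMSO, renewed every other day. EPZ-5676 and SGC-0946 are inhibitors of DOT1L, the H3K79 methyltransferase, and bind where its methyl donor would. The labels give 10 mM for each, a doubtful unit for a dose on cells. The labels give no age for the mice.

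Each treatment had 2 immunoprecipitated and 2 input libraries, 12 in all, but the peaks come as 1 list per treatment, called here the SGC, EPZ and DMSO lists. Whether a list pools both replicates or comes from 1 of them is not given in the sources used here. No spread between replicates can be had from them, no test is possible, and sequencing depth is unknown. Lacking a peak means here that the caller reported none. The lists cannot tell apart fewer cells with the mark and less mark per cell. Fold enrichment, a ratio over background that the authors' caller gave each peak, is used only to rank peaks within 1 list. The SGC list held 55 peaks, the EPZ list 4443 and the DMSO list 12578, and all positions are on mm10 (GRCm38). As a check of cell identity, all 7 T cell markers examined were marked in both the EPZ and the DMSO list. They were Cd8a and Cd8b1, and the T cell genes Cd3d, Cd3e, Cd3g, Lck and Cd2, which are not particular to CD8 T cells. Cd3d and Cd3g each had a DMSO peak shared with another gene. None of 3 CD4 T cell, 4 B cell, 3 NK cell and 5 myeloid markers had a peak in any list.

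H3K79me2 is placed by DOT1L on the bodies of transcribed genes, where it is usually densest just past the start of transcription. The 10 genes work as a network in CD8 T cells. The T-box factors T-bet and Eomesodermin, the repressors Blimp-1 and Zeb2, the E-protein antagonists Id2 and Id3, the Runx proteins and the Irf4 and Batf pair together set the balance between short-lived effector and memory cells.

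Marking of the 10 genes differed between treatments and from gene to gene. No member had an SGC peak, 5 of 10 had an EPZ peak and 8 of 10 had a DMSO peak, against 0.142%, 15.9% and 34.5% of all protein-coding genes in the SGC, EPZ and DMSO lists. Tbx21, Eomes, Id2, Runx3 and Irf4 were marked in both the EPZ and the DMSO list. Id3, Runx1 and Batf had DMSO peaks without EPZ peaks, and Prdm1 and Zeb2 had none in any list. When only peaks with a −log10 q of 5 or more were kept, DMSO marked 5 members and Id3, Runx1 and Batf had no DMSO peak either, so their DMSO marking rests on peaks below that threshold. Of the 8 DMSO-marked members 5 had an EPZ peak, where the share over all 7563 DMSO-marked genes was 46.1%. None of the 8 had an SGC peak, where that share was 0.41%. The members carried 6 EPZ and 13 DMSO peaks in all. No DMSO peak of a member reached another protein-coding gene, so each can be given to its gene among the protein-coding ones.

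**Figure D1:**
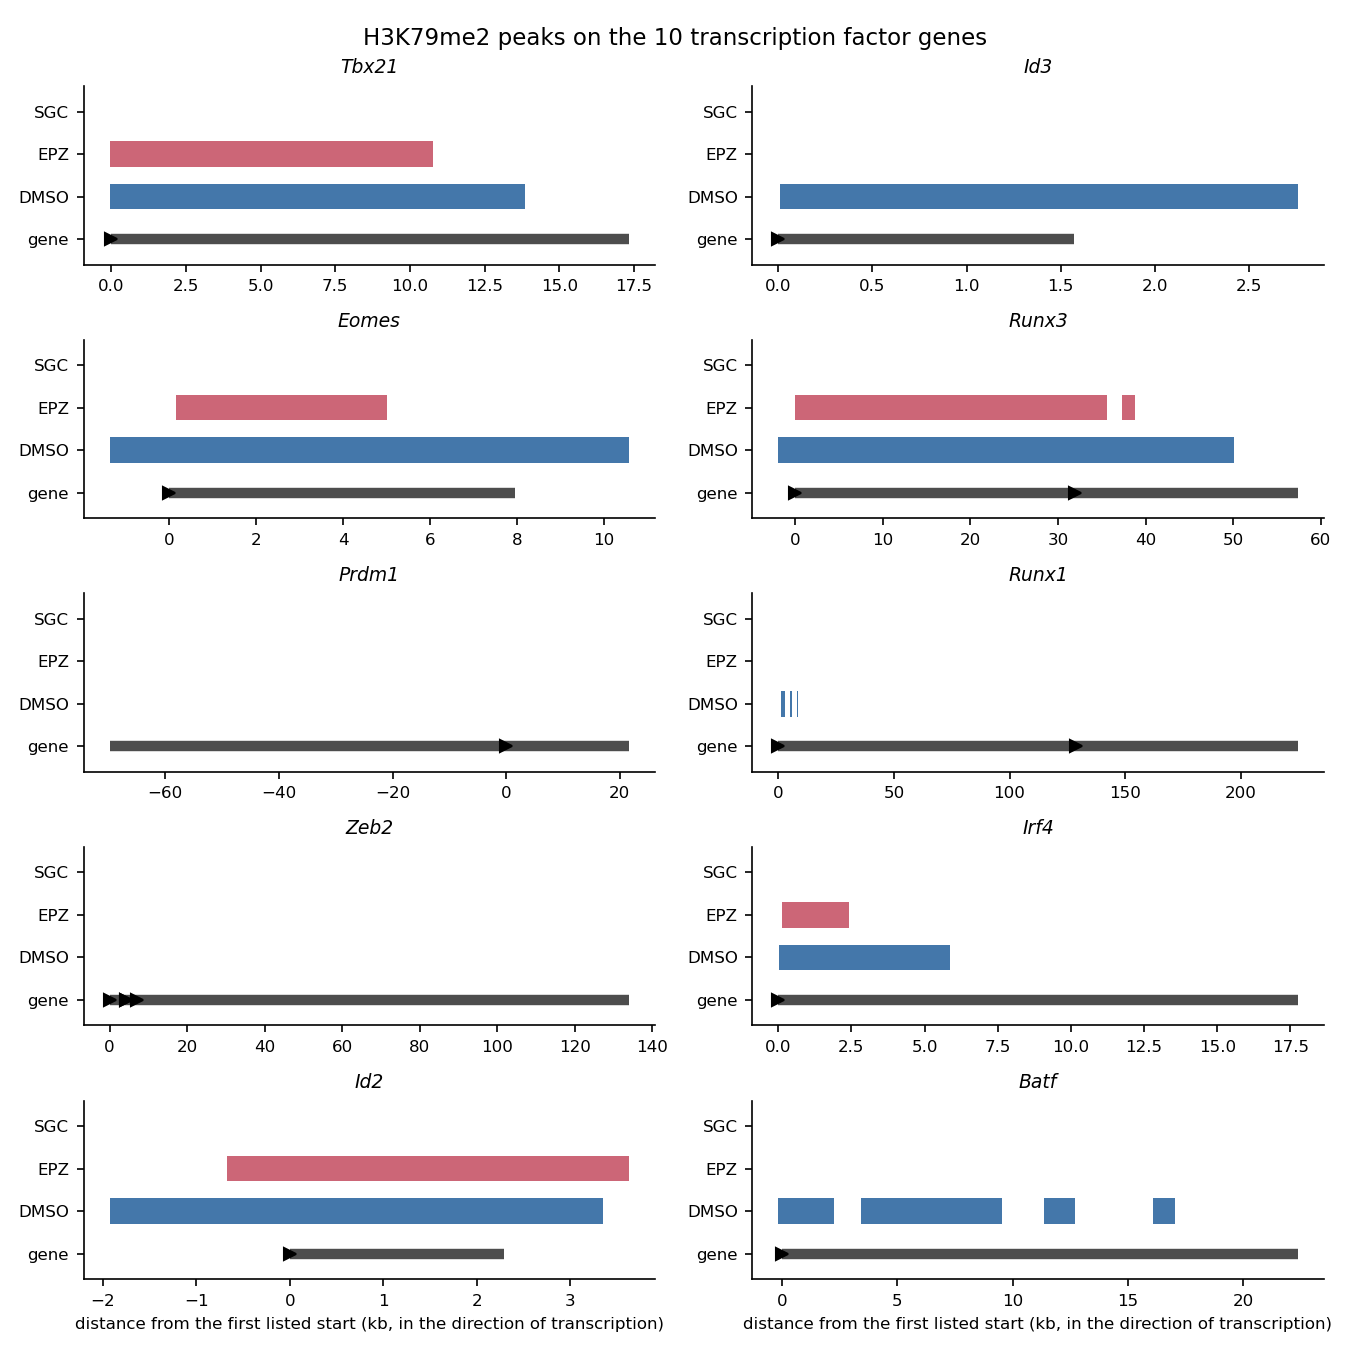
H3K79me2 peaks on each of the 10 genes, with distance from the most upstream listed RefSeq start in kb along the direction of transcription on the x axis and a scale of its own for each panel. Bars are peaks of the SGC, EPZ and DMSO lists from top to bottom, the grey line is the annotated gene and arrowheads are listed starts. Tbx21, Eomes, Id2, Runx3 and Irf4 show EPZ bars, Prdm1 and Zeb2 show no bar, and no panel has an SGC bar.

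The T-box genes were marked over most of their length. Tbx21 encodes T-bet, which drives effector differentiation and type 1 cytokine genes, and lies on chromosome 11 from 97098007 to 97115331 on the minus strand. It had 1 EPZ peak of 10.8 kb, at 5.54-fold within the EPZ list, and 1 DMSO peak of 13.9 kb, at 8.27-fold within the DMSO list. Peaks lay over 62.3% of the gene in the EPZ list and over 80.0% in the DMSO list. The EPZ peak began 45 bases before the start of transcription and the DMSO peak 55 bases before it, so the start-side edges differed by 10 bases while the far edge lay 3071 bases nearer to the start in EPZ. EPZ peaks thus covered 77.8% of the DMSO peak bases inside Tbx21.

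Eomes encodes Eomesodermin, a T-box relative of T-bet linked to memory and cytotoxic function, on chromosome 9 from 118478186 to 118486132 on the plus strand. Its EPZ peak spanned 4.84 kb and lay wholly inside the gene, whereas its DMSO peak spanned 11.9 kb, covered 100% of the gene and ran 1.36 kb before and 2.63 kb past it. The EPZ peak touched the noncoding RNA gene Gm33408, and the DMSO peak Gm33408 and another, Gm33460. The EPZ peak covered 60.9% of the gene and began 172 bases after the listed start. The fold enrichment was 10.1 in the EPZ list, at percentile 94.8 of its peaks, and 6.80 in the DMSO list, at percentile 91.0. Over the whole width of the DMSO peak, flanks included, the EPZ peak covered 40.5%.

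The Id genes encode small proteins that bind E proteins and keep them off DNA. Id2 is needed for effector cells, and Id3 marks cells with memory potential. Id2, on chromosome 12 from 25093799 to 25096092 on the minus strand, was covered from end to end in both lists, by an EPZ peak of 4.30 kb and a DMSO peak of 5.28 kb that each overran the 2.29 kb gene at both ends. Its fold enrichment was 14.3 in the EPZ list, the highest of the members there, and 10.8 in the DMSO list. It ranked at percentile 98.1 of EPZ peaks and 99.0 of DMSO peaks. At Id2 the EPZ edge lay 1253 bases inside the DMSO edge on the start side, and at -281 bases, that is beyond the DMSO edge, on the far side.

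Id3, on chromosome 4 from 136143822 to 136145392 on the plus strand, had no SGC or EPZ peak and 1 DMSO peak of 2.75 kb at 4.12-fold, which covered 99.3% of the gene and ran 1.19 kb past its end. The peak lay at percentile 68.0 of DMSO fold enrichment. The nearest EPZ peak was 27.4 kb away, in the cell cycle gene E2f2. The Id genes were thus both covered almost whole in DMSO, and only Id2 had a peak in EPZ.

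The Runx genes encode DNA-binding proteins that share the partner Cbfb. Runx3 keeps Cd4 silent and supports the cytotoxic program, and Runx1 acts earlier in T cell development and in resting cells. Each has a distal and a proximal promoter. Runx3, on chromosome 4 from 135120645 to 135177990 on the plus strand, held the widest domain of the members. It carried 2 EPZ peaks of 35.7 and 1.57 kb, separated by 1.65 kb, and 1 DMSO peak of 52.0 kb. The wider EPZ peak had 9.66-fold, the narrower 2.92-fold, and the DMSO peak 11.3-fold, the highest of the members in the DMSO list. The DMSO peak was at percentile 99.4 of DMSO widths. In both lists a peak covered the distal start at 135120645 and the proximal start at 135152545. The DMSO peak also touched the noncoding RNA gene Gm16225, and neither EPZ peak touched another gene. EPZ peaks lay over 64.8% of the gene, DMSO peaks over 87.3%, and EPZ peaks covered 74.2% of the DMSO peak bases in it.

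Runx1, on chromosome 16 from 92601466 to 92826074 on the minus strand, showed the opposite form. It had no SGC or EPZ peak and 3 short DMSO peaks of 1.75, 0.774 and 0.438 kb, at 3.83-fold, 3.31-fold and 2.59-fold in order from the distal start. Their −log10 q was 3.53, 2.23 and 1.12, where the lowest of the DMSO list was 1.00. The peak nearest to the distal start at 92826074 began 1077 bases after it. The 3 peaks together covered 1.32% of the 224.6 kb gene. The proximal start at 92697329 was 120.3 kb from the nearest DMSO peak that overlapped the gene. Both Runx genes thus had DMSO peaks on the side of the distal start, and only Runx3 had one at the proximal start.

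The windows around the distal starts are shown because those starts lie at or near peaks in both genes and carry the same run of bases. Capitals mark the Runx motif ACCACA or its reverse complement TGTGGT, searched on both strands, in RefSeq sequence of GRCm38.p6 from 250 bases before to 50 bases after the first base of the start, written 5′ to 3′ along the gene.
Runx3 distal start, chr4:135120395-135120694, plus strand: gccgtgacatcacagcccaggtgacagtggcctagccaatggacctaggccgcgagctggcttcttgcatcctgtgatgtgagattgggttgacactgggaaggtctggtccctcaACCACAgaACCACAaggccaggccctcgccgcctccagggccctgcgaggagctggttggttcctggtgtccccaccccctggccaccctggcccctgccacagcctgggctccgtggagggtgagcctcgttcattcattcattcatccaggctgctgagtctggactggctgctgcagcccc
Runx1 distal start, chr16:92826025-92826324, minus strand: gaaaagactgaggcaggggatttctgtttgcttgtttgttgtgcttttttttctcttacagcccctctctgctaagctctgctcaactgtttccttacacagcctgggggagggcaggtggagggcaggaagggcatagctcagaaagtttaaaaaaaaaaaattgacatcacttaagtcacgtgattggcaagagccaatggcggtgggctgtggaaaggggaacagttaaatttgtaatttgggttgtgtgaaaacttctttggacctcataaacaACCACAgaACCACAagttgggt
Each window held 2 matches, which a script found 8 bases apart. The longest run of bases common to both windows was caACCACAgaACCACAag, 18 bases long, which began at position -136 from the Runx3 start and at position 26 from the Runx1 start. Of 32851 such windows in the table, 4 held that run, at Runx1, Runx2, Runx3 and Gm16225, a noncoding RNA gene beside the Runx3 start. The run was taken from the Runx3 and Runx1 windows, so both were bound to hold it. The motif ACCACA alone occurred in 16.8% of windows, and 2 copies of it with 2 bases between them, looked for after the run was seen, in 7 windows. The proximal windows of Runx3 and Runx1 had no match to ACCACA. They had a GC content of 77.3% and 69.0%, and the distal windows 63.7% and 45.0%, beside a median of 52.7% over all windows. A match says that the letters are present, not that a Runx protein binds there. The EPZ peak took up 109 of the 300 bases of the distal Runx3 window and the DMSO peak all of them, whereas the distal Runx1 window lay outside any peak.

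Irf4 and Batf encode an interferon regulatory factor and a basic leucine zipper protein that bind DNA together after T cell receptor signalling. Irf4, on chromosome 13 from 30749233 to 30766981 on the plus strand, had 1 EPZ peak of 2.27 kb at 3.29-fold and 1 DMSO peak of 5.82 kb at 5.15-fold. Its EPZ peak ranked at percentile 35.7 of that list and its DMSO peak at percentile 80.8 of its own. Peaks lay over 12.8% of the gene in EPZ and 32.8% in DMSO. The EPZ peak began 141 bases after the start and the DMSO peak 32 bases after it, and the far edge lay 3444 bases nearer to the start in EPZ. With a −log10 q of at least 5 required, Irf4 had no EPZ peak.

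Batf, on chromosome 12 from 85686720 to 85709087 on the plus strand, had no SGC or EPZ peak and 4 DMSO peaks. In order from the start they spanned 2.44, 6.13, 1.34 and 0.957 kb, at 4.15-fold, 3.36-fold, 2.72-fold and 2.74-fold. Their −log10 q was 3.95, 2.22, 1.01 and 1.08, where the lowest of the DMSO list was 1.00. Gaps of 1.15, 1.82 and 3.39 kb lay between them. Together they covered 47.8% of the gene, 10.7 kb. That is more bases inside the gene than Eomes, Irf4, Id2, Id3 or Runx1 had in the DMSO list. The Eomes value is capped at its gene length of 7.95 kb, and its whole DMSO peak spanned 11.9 kb. The nearest EPZ peak was 313.0 kb away.

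At Tbx21, Batf, Id3 and Irf4 the start-side edge of the DMSO peak fell inside the 300-base window around the start, so those windows show where the called domain begins. Capitals mark bases inside the DMSO peak. Peak edges follow read coverage and are not precise to the base.
Tbx21, chr11:97115282-97115581, minus strand: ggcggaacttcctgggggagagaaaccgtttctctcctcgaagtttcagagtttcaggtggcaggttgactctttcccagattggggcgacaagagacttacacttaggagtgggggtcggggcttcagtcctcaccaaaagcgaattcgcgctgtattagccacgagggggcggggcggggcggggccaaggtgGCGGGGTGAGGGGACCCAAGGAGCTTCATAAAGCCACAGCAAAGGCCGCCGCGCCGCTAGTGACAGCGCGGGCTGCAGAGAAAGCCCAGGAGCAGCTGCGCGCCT
Batf, chr12:85686470-85686769, plus strand: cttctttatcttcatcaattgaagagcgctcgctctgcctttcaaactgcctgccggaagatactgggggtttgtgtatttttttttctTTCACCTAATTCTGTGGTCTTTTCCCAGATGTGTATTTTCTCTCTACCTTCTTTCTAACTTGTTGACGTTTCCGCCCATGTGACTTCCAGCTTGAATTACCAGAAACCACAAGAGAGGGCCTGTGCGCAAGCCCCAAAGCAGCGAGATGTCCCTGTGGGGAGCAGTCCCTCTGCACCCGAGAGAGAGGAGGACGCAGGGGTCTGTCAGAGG
Id3, chr4:136143572-136143871, plus strand: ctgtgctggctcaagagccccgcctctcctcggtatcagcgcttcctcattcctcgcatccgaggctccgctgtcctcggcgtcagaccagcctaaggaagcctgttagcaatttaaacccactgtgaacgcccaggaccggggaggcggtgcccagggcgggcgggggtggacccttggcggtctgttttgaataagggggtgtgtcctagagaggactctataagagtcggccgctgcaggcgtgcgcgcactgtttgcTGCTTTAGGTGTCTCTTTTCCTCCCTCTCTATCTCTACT
Irf4, chr13:30748983-30749282, plus strand: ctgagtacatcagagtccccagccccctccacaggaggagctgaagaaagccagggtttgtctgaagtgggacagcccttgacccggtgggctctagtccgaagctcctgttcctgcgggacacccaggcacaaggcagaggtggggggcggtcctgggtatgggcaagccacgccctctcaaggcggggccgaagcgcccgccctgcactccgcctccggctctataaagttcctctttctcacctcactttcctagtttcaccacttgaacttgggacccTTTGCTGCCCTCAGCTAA
The DMSO peak took up 105 of the 300 bases at Tbx21, 211 at Batf, 39 at Id3 and 18 at Irf4. The EPZ peak took up 95 bases of the Tbx21 window and none of the other 3. At Eomes, Id2 and the Runx3 starts the DMSO peak covered the whole window. Over the genome, a listed start lay inside a peak of its gene in 22.6% of 2831 EPZ-marked genes and 44.2% of 6149 DMSO-marked genes with a listed start, and within 1000 bases of one in 87.0% and 92.6%. The windows of Tbx21, Batf, Id3 and Irf4 held no match to the T-box motif TCACACC, present in 3.98% of all windows, or to the AP-1 motif TGANTCA, present in 7.81%. The Irf4 window held TATAAA, present in 13.6% of windows, at position -26 from the start as counted to the motif's first base. The Batf window held ACCACA at 2 places, positions -149 and -56 from the start. The Eomes window held an Irf repeat, GAAA and GAAA with 2 bases between, present in 3.44% of windows. Among the other members, TGANTCA lay in the Prdm1 window, at position -48, and at the most downstream Zeb2 start, at -189 and -132. The E-box CACCTG, searched on both strands and present in 20.2% of windows, lay in the windows of Tbx21, Prdm1 and the distal Runx3 and Runx1 starts.

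Prdm1 encodes Blimp-1, a repressor of memory genes, on chromosome 10 from 44437174 to 44528558 on the minus strand, an interval that extends well upstream of its listed start at 44458748. The nearest EPZ peak to it was 439.8 kb away and the nearest DMSO peak 153.8 kb away. Zeb2 encodes a zinc finger repressor that works with T-bet in terminal effector cells, on chromosome 2 from 44983512 to 45117442 on the minus strand. The nearest EPZ and DMSO peaks to Zeb2 were 1229 and 1192 kb away, and none of its 4 listed starts lay in a peak. At these distances, extending each gene by 5 kb on either side could not have reached a peak. In 300-base windows the GC content at the Prdm1 start was 59.7%, and at the 4 Zeb2 starts 49.3% to 60.7%.

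**Figure D2:**
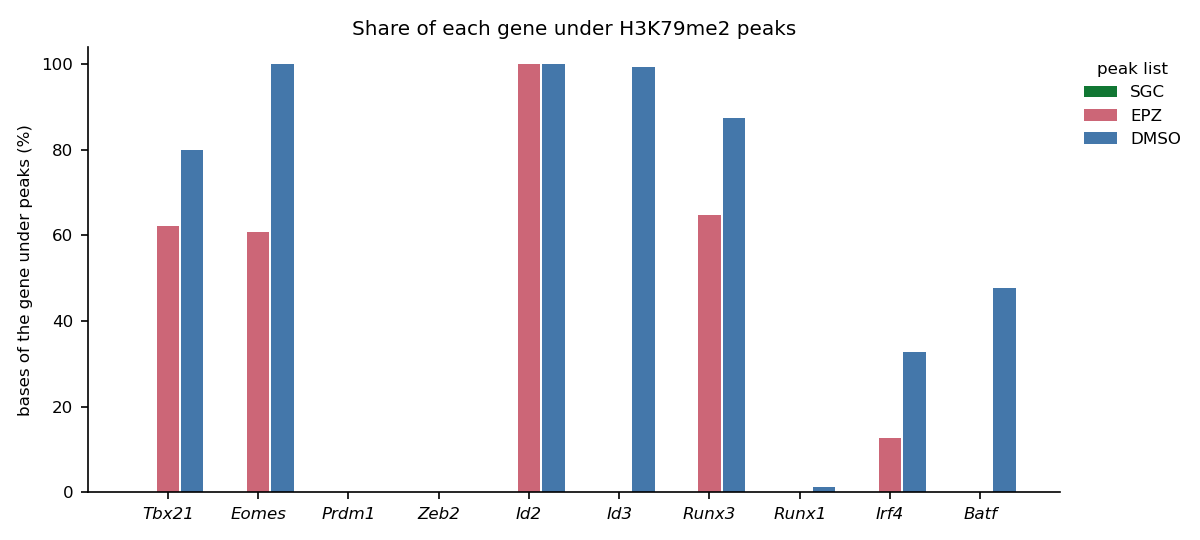
Percent of the bases of each gene that lay under SGC, EPZ and DMSO peaks, from left to right within a gene, with 1 list per treatment and no error bars. Id2 was covered whole in EPZ and DMSO, Id3 was covered at 99.3% in DMSO alone, Runx1 at 1.32% in DMSO alone, and every SGC value is 0.

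Set in order of their highest DMSO fold enrichment, the members ran Runx3 (11.3), Id2 (10.8), Tbx21 (8.27), Eomes (6.80), Irf4 (5.15), Batf (4.15), Id3 (4.12) and Runx1 (3.83). The 5 highest had EPZ peaks and the 3 lowest did not. No spread is known for these values, so neighbours in the order such as Batf and Id3 cannot be told apart. The median over the 8 was 5.98, beside 4.47 over all DMSO-marked genes (interquartile range 3.53 to 5.99). In EPZ the order was Id2 (14.3), Eomes (10.1), Runx3 (9.66), Tbx21 (5.54) and Irf4 (3.29), with a median of 9.66 beside 4.09 over all EPZ-marked genes.

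Across all DMSO-marked genes, the share with an EPZ peak ran along the same axis. It was 8.33% of 1092 genes at a DMSO fold enrichment of 3.5 to 4, where Runx1 lay, and 33.2% of 912 genes at 4 to 4.5, where Id3 and Batf lay. It was 67.8% of 1361 genes at 4.5 to 5.5, with Irf4, 88.3% of 1197 genes at 5.5 to 7, with Eomes, and 92.1% of 761 genes at 7 to 9, with Tbx21. At 9 and above, with Id2 and Runx3, it reached 95.2% of 419 genes (95% interval 92.7 to 97.1, exact binomial, for counting of genes only). Each member thus fell with the majority of its band.

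**Figure D3:**
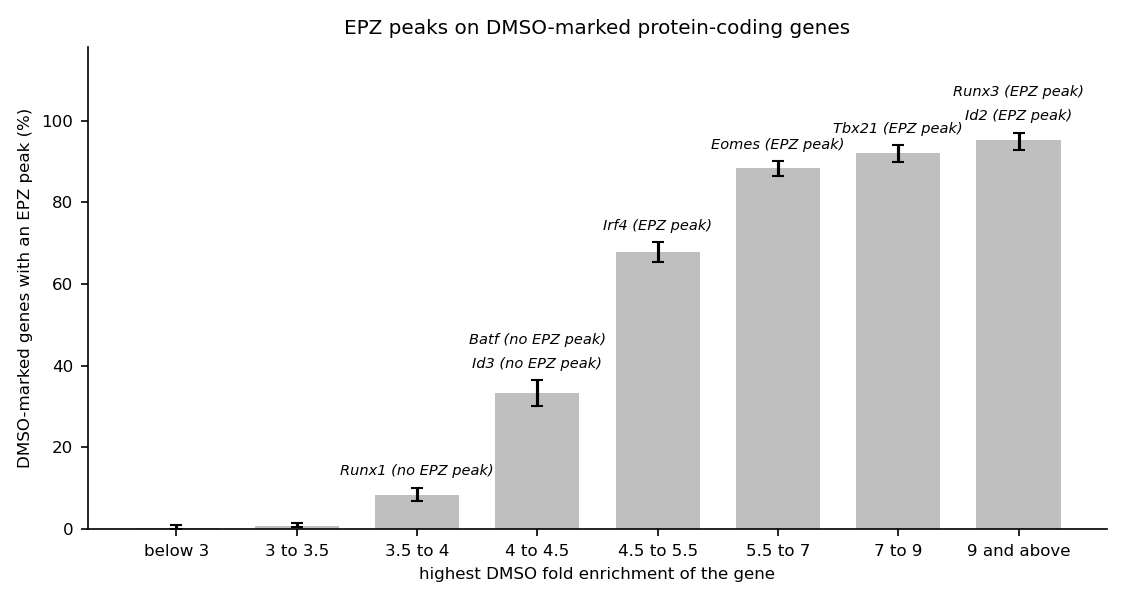
Percent of DMSO-marked protein-coding genes with an EPZ peak, in bands of the gene's highest DMSO fold enrichment, with exact 95% intervals for counting of genes. The 8 DMSO-marked members are named above their bands, from Runx1 at 3.5 to 4 to Runx3 and Id2 at 9 and above.

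Batf had 10.7 kb of DMSO peak bases, Id3 1.56 kb and Runx1 2.96 kb. Of the 359 other genes whose DMSO peak bases came within 10% of those of Batf, 71.6% had an EPZ peak. Of the 1553 other genes within 10% of its DMSO fold enrichment, 26.0% did. For Id3 the shares were 10.9% of 385 genes by peak bases and 24.5% of 1562 by fold enrichment, and for Runx1 35.7% of 446 and 12.6% of 1610. By peak bases, then, Batf lay among genes that mostly had EPZ peaks, and by fold enrichment among genes that mostly had none. In the 80 genes close to Batf on both measures the share was 43.8%. It was 3.57% of 84 such genes for Id3 and 9.30% of 129 for Runx1.

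Where both lists had peaks, EPZ peaks covered 39.0% of the DMSO peak bases in Irf4, 60.9% in Eomes, 74.2% in Runx3, 77.8% in Tbx21 and 100% in Id2. The median of 74.2% compares with 34.3% over the 3486 genes marked in both lists (interquartile range 18.4 to 55.4). At least 50% of the DMSO bases were covered in 4 of the 5 members, and in 31.3% of all such genes. Over the whole width of the DMSO peak the share at Eomes was 40.5%, under that limit. Genes of high DMSO fold enrichment had larger covered shares in general. Among genes within 10% of a member's DMSO fold enrichment that had EPZ peaks, the median covered share was 21.6% near Irf4, 43.0% near Eomes, 56.4% near Tbx21, 73.4% near Id2 and 73.7% near Runx3. Counted inside genes, Irf4, Eomes, Tbx21 and Id2 each lay above the median of their band, and Runx3 lay within 1 percentage point of it. For Eomes the 40.5% over the whole peak is below the 43.0% that its band had inside genes. Id2 is a 2.29 kb gene wholly inside both peaks. Over its whole DMSO peak the share was 76.3%, beside the 73.4% of its band inside genes. Among genes within 10% of a member's DMSO peak bases instead, the medians were 36.9% near Irf4, 31.6% near Eomes, 31.1% near Tbx21, 44.5% near Id2 and 23.4% near Runx3. These differences have no replicate check.

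In Tbx21, Eomes, Runx3 and Irf4 the EPZ domain was shorter mainly at the end away from the start. The start-side edge lay 10, 1538, 1862 and 109 bases inside the DMSO edge in these genes, and the far edge 3071, 5560, 11249 and 3444 bases inside it. Id2 was the exception, with the larger shift on the start side, so the far edge moved in more in 4 of 5 members. Among 1253 genes with 1 DMSO peak that touched no other protein-coding gene and with an EPZ peak, the far edge moved in more in 93.8%, with a median of 352 bases at the start side and 3116 bases at the far side. The start-side shifts of Runx3, Eomes and Id2, 1253 to 1862 bases, lay above the upper quartile of 744 bases. In these 3 genes the DMSO peak began 1.36 to 1.93 kb before the gene.

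**Figure D4:**
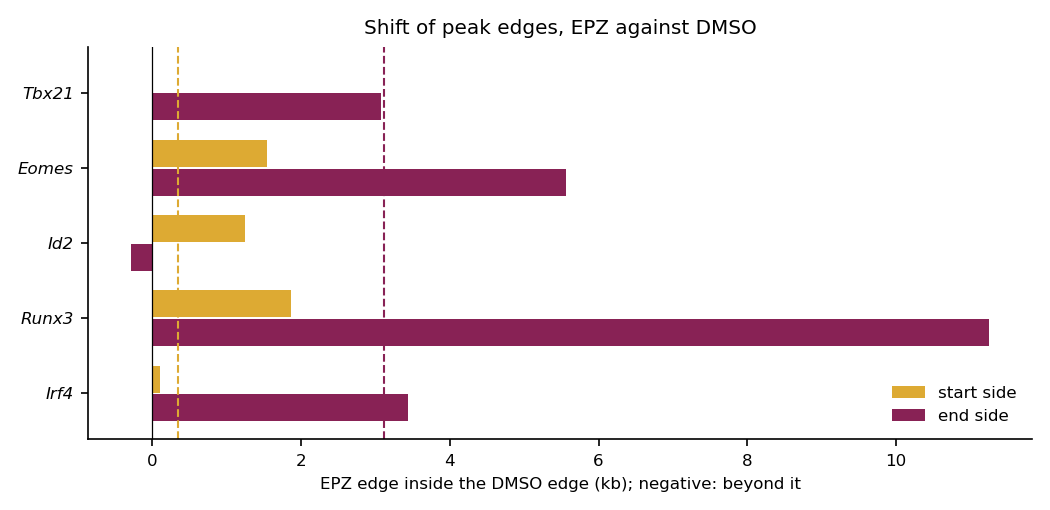
Distance in kb by which the EPZ domain edge lay inside the DMSO domain edge, at the side of the start and at the far side, for the 5 members with peaks in both lists. Dashed lines are the medians over 1253 genes, 352 bases at the start side and 3116 bases at the far side, and the far-side bar of Id2 is negative, at -281 bases, because its EPZ peak ran further.

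With SGC-0946 none of the members carried a called peak, and with EPZ-5676, compared at the same labelled dose and day, 5 did. Over all EPZ-marked genes 0.889% also had an SGC peak, so a count of 0 among 5 does not set the members apart. On the chromosomes that held SGC peaks, the nearest one lay 9341 kb from Tbx21, 16312 kb from Batf, 30543 kb from Zeb2, 44278 kb from Id2, 75922 kb from Runx3 and 76945 kb from Id3. The chromosomes of Eomes, Prdm1, Runx1 and Irf4 held none. With 1 list per compound the difference between the inhibitors has no interval from replicates.

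The nearest protein-coding neighbours on either side of the members made up 20 genes. None had an SGC peak, 4 had an EPZ peak and 11 a DMSO peak, and none shared a peak with a member. Over all protein-coding genes the shares were 0.142%, 15.9% and 34.5%. Rpl11, a ribosomal protein gene 90.4 kb before Id3, had 8.15-fold in EPZ and 11.1-fold in DMSO, and E2f2, 26.9 kb after it, had 6.94-fold in EPZ and 8.45-fold in DMSO. Id3 therefore lay without an EPZ peak between neighbours that each had one. Kidins220, 30.6 kb after Id2, had 3.06-fold in EPZ and 4.94-fold in DMSO. Exoc2, 22.5 kb after Irf4, had an EPZ peak of 2.82-fold over 0.381 kb and a DMSO value of 4.20-fold. Osbpl7 after Tbx21, Golga4 after Eomes, Atg5 and Prep around Prdm1, Syf2 and Clic4 around Runx3 and Dusp22 before Irf4 had DMSO peaks alone, of 2.88-fold to 5.69-fold. Tbkbp1 before Tbx21, LOC115486419 before Eomes, Rnf144a before Id2, both neighbours of Zeb2 (Gtdc1 and Acvr2a), both of Runx1 (Clic6 and Setd4) and both of Batf (Jdp2 and Flvcr2) had no peak. Tbx21, Runx3 and Eomes were thus marked in EPZ while neither of their neighbours was. With 15.9% of protein-coding genes marked in EPZ, unmarked neighbours do not set these members apart.

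Among 20 known partners and relatives of the members, none had an SGC peak, 12 had an EPZ peak and 14 a DMSO peak. Over all protein-coding genes the shares were 0.142%, 15.9% and 34.5%, and this list was chosen with earlier results of these data known. The AP-1 partners of Batf stood high, with Junb at 7.10-fold in EPZ and 9.23-fold in DMSO, Jun at 4.09-fold and 7.96-fold, and Jund at 8.64-fold and 6.96-fold, the last through a DMSO peak shared with another gene. Bhlhe40, a transcription factor of activated T cells, had 8.06-fold in EPZ and 8.22-fold in DMSO. Cbfb, the partner of the Runx proteins, Runx2, Zeb1, Bcl6, Bach2, Stat4 and Nfil3 also had peaks in both lists. Irf8, a relative of Irf4, was among the lowest, with 3.30-fold over 0.807 kb in EPZ and 4.29-fold over 10.4 kb in DMSO. The E-protein genes Tcf3 and Tcf12, whose products Id2 and Id3 bind, had DMSO peaks of 5.07-fold and 4.22-fold and no EPZ peak. Tcf4, the third E-protein gene, and Id1, Id4, Batf2, Batf3 and Tbr1 had no peak.

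Within families, relatives of members differed in the same list. Zeb2 had no peak, whereas Zeb1, a relative linked to memory cells, had 3 EPZ peaks over 2.19 kb and 13 DMSO peaks over 47.6 kb. Batf had 4 DMSO peaks and Batf2 and Batf3 none. Runx2 had 1 EPZ peak and 13 DMSO peaks over 44.7 kb. Its 1 listed start, which holds the 18-base run, lay 74.3 kb from the nearest DMSO peak that overlapped the gene. Of the genes that oppose Prdm1, Bcl6 had 3.54-fold in EPZ and 4.74-fold in DMSO, and Bach2 3.31-fold and 5.26-fold.

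Of 14 genes known as targets of these factors, none was marked in SGC and 8 were marked in EPZ, the same 8 as in DMSO. Over all protein-coding genes 0.142% were marked in SGC, 15.9% in EPZ and 34.5% in DMSO. Of all DMSO-marked genes 46.1% had an EPZ peak. The targets too were chosen with earlier results of these data known. Gzmb, encoding granzyme B, had 8.88-fold in EPZ and 11.1-fold in DMSO, and Cd8a had 9.17-fold and 10.6-fold. Il2rb, an interleukin-2 and interleukin-15 receptor chain controlled by T-bet and Eomesodermin, had 17.3-fold in EPZ and 8.47-fold in DMSO, and the homing receptor gene Ccr7 had 5.46-fold and 8.16-fold. Il7r was lowest, at 3.26-fold in EPZ and 3.64-fold in DMSO, and the chemokine receptor gene Cxcr3 had 6.44-fold and 6.18-fold. Il2ra and Fasl were also marked in both lists. Prf1, Ifng, Cx3cr1, S1pr5, Klrg1 and Ccl5 had no peak in any list.

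**Figure D5:**
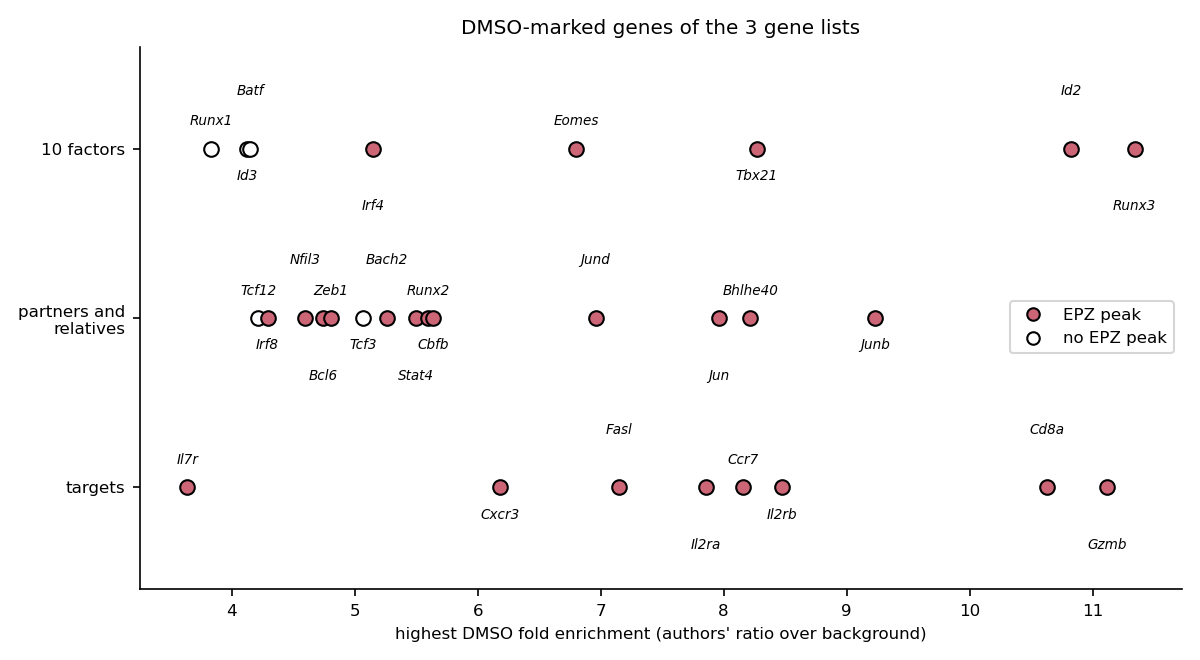
Highest DMSO fold enrichment of each DMSO-marked gene among the 10 factors, their partners and relatives, and their targets, with filled points for genes that also have an EPZ peak. Among the factors the open points, Runx1, Id3 and Batf, lie between 3.83 and 4.15, and among the partners the open points are Tcf12 and Tcf3.

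For each DMSO-marked member other than Id2, the protein-coding gene closest in peak bases over the 3 lists was found by the distance between log10(1 + bases) in SGC, EPZ and DMSO. Jpt1 was closest to Tbx21, with 10.8 kb of peaks in EPZ and 13.5 kb in DMSO. Hdhd5 was closest to Eomes, with 4.95 kb and 8.01 kb. Wipf1 was closest to Runx3, with 40.5 kb in EPZ and 48.3 kb in DMSO, and Eif4g1 to Irf4, with 2.24 kb and 5.94 kb. Among genes with no EPZ peak, Wdr18 was closest to Id3, Cat to Runx1 and Pacs2 to Batf, with 1.56, 2.96 and 10.7 kb in DMSO.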

How the data were processed

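The authors' files are 3 lists of broad peaks, and the submitters' processing notes list MACS2 2.2.7.1, Picard and BWA 0.7.17-r1188 as tools, and mm10 (GRCm38) and sacCer3 as builds. Whether and how replicates were combined, and whether inputs and the yeast spike-in were used, is not given in the sources used here. Following the broad-peak layout, each deposited peak has the authors' fold enrichment (a ratio over background) and −log10 q, both averaged over the peak. The deposited score follows the −log10 q and was not used further. Depth per library is unknown, so no value has an interval for it.

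Peaks were intersected with RefSeq genes of GRCm38.p6 at a minimum of 1 base in Python 3.11.15 with pandas 2.3.3. Strand and starts came from the RefSeq promoter table, which matched all 10 members with 15 windows and 17492 of the 21900 protein-coding genes. Interval functions were tested on simulated data. Replicates numbered in the labels have no values of their own here, so comparisons are descriptions with no test.

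Every member was named, with its nearest protein-coding neighbours. Of the related genes counted, all were named, with values for the 4 of highest and 2 of lowest DMSO fold enrichment, and values of others were added after they were seen. Members and lists were chosen with earlier results of these data known. A listed relative was not analysed here, and a further target, outside the counts given, and the gene most like Id2 are not reported here. Alternatives changed the q threshold, the overlap, the gene interval and the peak width.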

Additional observations from a re-analysis of the deposited data

How the results depend on the processing

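No paired analysis was possible because each treatment has 1 list with no values per replicate, and for the same reason no replicate could be left out. Counts of marked members or of marked related genes moved by over 1.5 times under 2 kinds of setting. With a −log10 q of at least 5, DMSO marked 5 members and the lost ones were Id3, Runx1 and Batf, and EPZ marked 7 of the partners and relatives. EPZ then marked 4 members, without Irf4, a change below 1.5 times. With a listed start required inside a peak, a setting chosen after seeing the data, EPZ marked 3 members (Tbx21, Id2 and Runx3) and DMSO marked 5 (those 3, Eomes and Batf). Of the 17492 protein-coding genes with a listed start, 639 in EPZ and 2716 in DMSO had one inside a peak. A peak in the first 5 kb after a listed start, also chosen after seeing the data, gave 5 in EPZ and 8 in DMSO. The shares over those 17492 genes were 15.7% and 34.1%. Counts of marked members were unchanged when 500 bases in the gene or peaks of 500 bases were required, when a peak went to the gene it overlaps most, and when genes were extended by 5 kb. The median share of DMSO bases in EPZ peaks was 71.6% in genes extended by 5 kb and over the whole width of peaks. At Id2 it was then 76.3%. SGC marked 0 members under every setting run, but the nearest SGC peak to any member was 9341 kb away. None of these settings could have added one. Background shares moved most with the q threshold, to 7.68% of genes in EPZ and 17.3% in DMSO. Joining peaks closer than 1 kb could not change the members' peak numbers, because the smallest gap within a member was 1.15 kb. With a −log10 q of at least 5, Runx3 had 1 EPZ peak instead of 2. Unknown depth limits every statement that a gene lacks a peak.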
